A study of Mus musculus with 12 samples.

Results

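The transcripts examined here encode the enzymes that interconvert pyruvate and lactate and the carriers that move these acids across membranes in mouse retina. All 10 genes were chosen by name, out of 56748 genes in the deposited table: *Ldha*, *Ldhb*, *Slc16a1*, *Slc16a3*, *Slc16a7*, *Slc16a8*, *Bsg*, *Nxnl1*, *Mpc1* and *Mpc2*. The rule used their names and no measured value, although earlier results of these data were known when it was made, and all 10 passed the filter on low values in every comparison.

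The study asked what happens in rods when pyruvate kinase M2 (PKM2), which makes pyruvate in the last step of glycolysis, is removed from them. All animals were RiboTag mice carrying i75-Rod-Cre, a rhodopsin-promoter Cre, so that rod ribosomes bore a hemagglutinin tag. Control mice carried 1 floxed *Pkm2* allele (Pkm2 fl/+), so they were rod heterozygotes and not wild-type mice, although their libraries are titled wt. Knockout (Pkm2Rodko) mice carried 2 floxed alleles (Pkm2 fl/fl). RNA was sequenced from tagged polyribosomes pulled down from retinal lysate (Rod-TRAP, here "rods") and from total retinal lysate (input, here "retina"), with 3 libraries in each of the 4 groups. The age of the mice is given as 2 weeks in the series text and as 2 months in the methods. The labels do not say whether libraries of a group came from separate animals, so the p-values measure the spread between these libraries.

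Lactate dehydrogenase is a tetramer of A subunits, encoded by *Ldha* and associated with lactate formation, and B subunits, encoded by *Ldhb* and associated with lactate use. Monocarboxylate transporters (MCTs) of the SLC16 family carry lactate and pyruvate with a proton across the plasma membrane, and several of them reach the membrane only with basigin, encoded by *Bsg*. Photoreceptors turn much of their glucose into lactate, which Müller glia and the retinal pigment epithelium can take up, while the mitochondrial pyruvate carrier, a complex of MPC1 and MPC2, admits pyruvate to oxidation. Rods also secrete rod-derived cone viability factor (RdCVF), a short product of *Nxnl1*, which acts on cones through the retinal form of basigin. Counts per gene do not separate the forms of *Bsg* or of *Nxnl1*.

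Total reads on genes ranged from 13458890 to 22790074 per library. *Pkm*, the targeted gene, whose counts pool the M1 and M2 forms, was 66618, 65101 and 70318 in the control rod libraries and 30486, 28578 and 28253 in the Pkm2Rodko rod libraries (log2 fold change -1.20, adjusted p = 5.4e-05, limma). In retina *Pkm* was 26619, 28897 and 26666 in control and 16978, 17094 and 17531 in Pkm2Rodko libraries (log2 fold change -0.65, adjusted p = 0.0219, limma). These values, and all levels given here, are read counts brought to 1 common scale over the 12 libraries. The 20 rod markers were all higher in control rods than in control retina (median log2 difference 1.91), while all 14 Müller glia markers and all 12 pigment epithelium markers were lower. Pigment epithelium markers varied widely among libraries, their sum running from 2234 to 20872 in control retina, and this is set beside the genes it touches.

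To compare genes with each other, levels were divided by exon length. In control rods *Ldha* was the highest at 14099 ± 679 per kilobase (SD, n = 3), followed by *Bsg* at 11458 ± 1422 and *Nxnl1* at 5512 ± 408. *Slc16a1* (2226 ± 218 per kilobase), *Ldhb* (1546 ± 395) and *Slc16a3* (400.4 ± 70.5) formed the middle of the order. The mitochondrial carriers stood at 121 ± 14.9 per kilobase for *Mpc2* and 92.5 ± 5.94 for *Mpc1*, and *Slc16a8* (16.4 ± 13.1) and *Slc16a7* (2.50 ± 0.822) were the lowest. No neighbours in this order had overlapping libraries. The order of the means was the same in Pkm2Rodko rods. In control retina *Bsg* (5743 ± 589 per kilobase) and *Ldha* (4823 ± 542) overlapped, as did *Mpc1* with *Slc16a3* and *Slc16a8* with *Slc16a7*. There, *Ldhb* (1837 ± 176 per kilobase) lay above *Nxnl1* (1531 ± 95.8), and *Mpc1* lay above *Mpc2*, the reverse of the order in rods. Both orders rest on the merged exon lengths, which are 7344 bases for *Mpc2* and 2082 for *Mpc1*. In reads *Mpc2* exceeded *Mpc1* in every library, with 58.5% to 85.7% of the reads of the 2 genes. Before division by length *Nxnl1* (4179) also exceeded *Ldhb* (2884) in control retina. A sequence copy of *Mpc1*, *Mpc1-ps*, was counted apart. It held 45.9% ± 8.96 as many reads as *Mpc1* in control rods and 53.4% ± 2.83 in control retina (SD, n = 3). Reads could have been divided between *Mpc1* and its copy, so the order of *Mpc1* and *Mpc2* is uncertain, in reads and per kilobase. The 10 genes together took 0.450% ± 0.00823 of the reads in control rods, 0.470% ± 0.0265 in Pkm2Rodko rods, 0.263% ± 0.00676 in control retina and 0.273% ± 0.00443 in Pkm2Rodko retina (SD, n = 3).

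**Figure D1:**
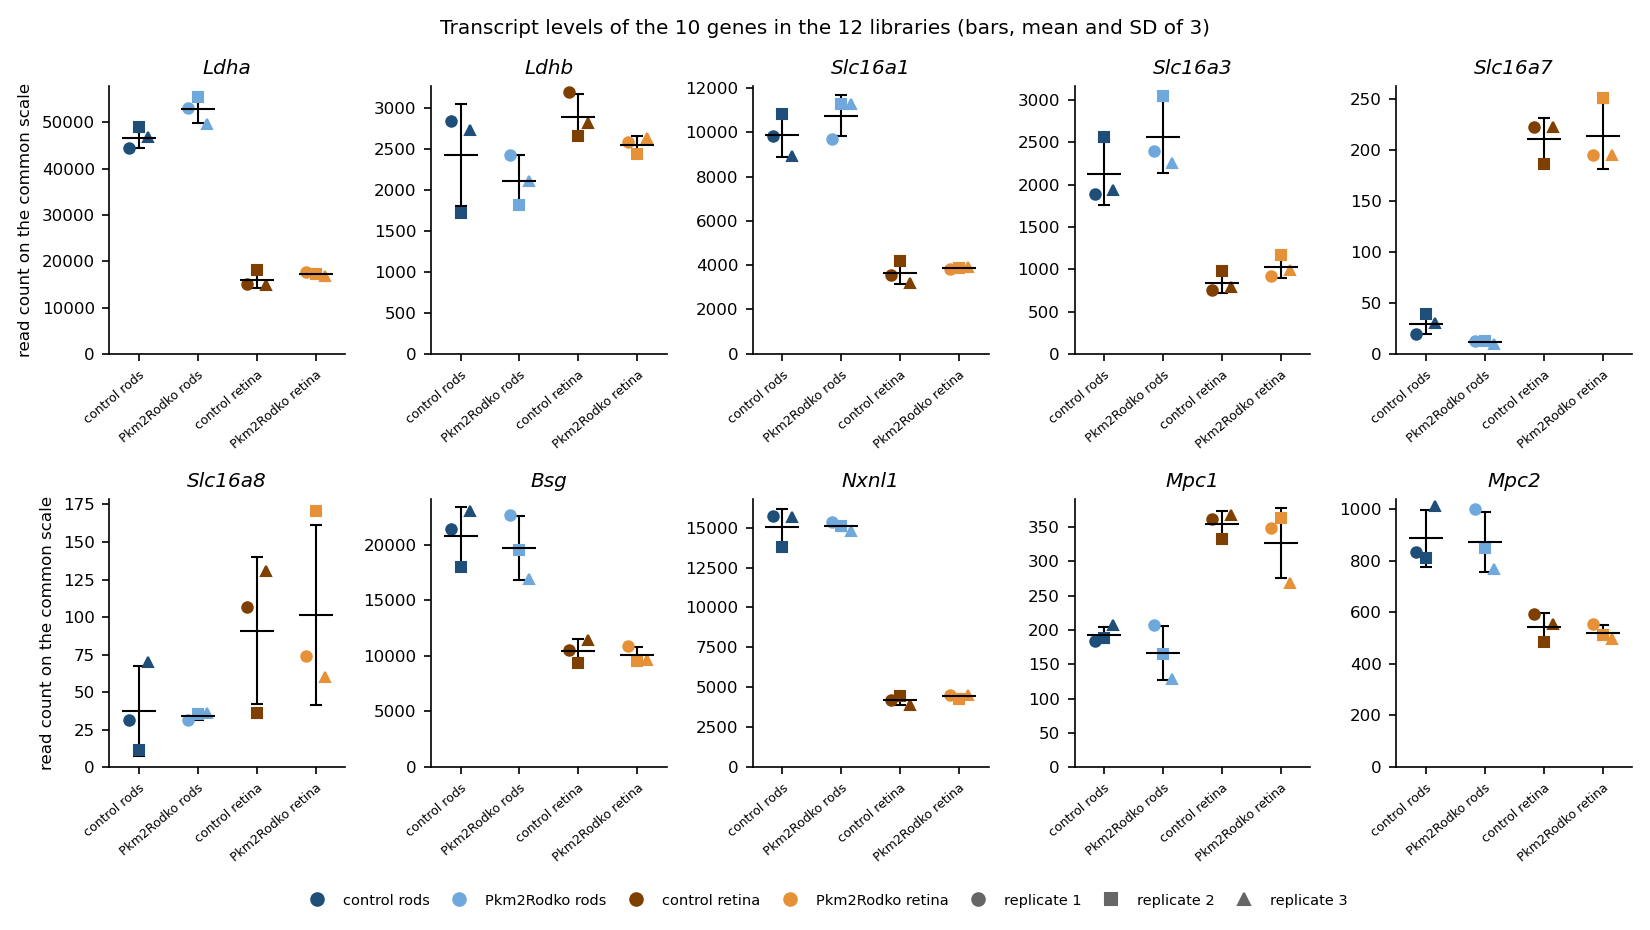
Level of each gene in the 12 libraries, as read counts on the common scale (vertical axes start at 0); points are libraries, with shape giving the replicate number, and bars are the mean and SD of 3. *Ldha*, *Slc16a1*, *Slc16a3*, *Bsg*, *Nxnl1* and *Mpc2* were higher in all 6 rod libraries than in all 6 retina libraries, whereas *Slc16a7* was at 10.1 to 39.1 in rods and 186 to 251 in retina.

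*Ldha* reads were several times more abundant in the rod pulldown than in whole retina, while *Ldhb* reads were not, so the 2 transcripts stood in a different proportion in the 2 fractions. The promoters of both genes are shown because the genes parted in this way. They come from RefSeq on build GRCm38.p6 and run from 250 bases before to 50 bases after the start, with capitals marking the letters ACGTG, the core of E-box and hypoxia-response sites, and TAATC, the core of sites of the photoreceptor factor CRX, on either strand. The *Ldha* promoter is chr7:46845554-46845853 (+ strand), the first of 2 entries for the gene, and the *Ldhb* promoter is chr6:142507908-142508207 (- strand).
Ldha: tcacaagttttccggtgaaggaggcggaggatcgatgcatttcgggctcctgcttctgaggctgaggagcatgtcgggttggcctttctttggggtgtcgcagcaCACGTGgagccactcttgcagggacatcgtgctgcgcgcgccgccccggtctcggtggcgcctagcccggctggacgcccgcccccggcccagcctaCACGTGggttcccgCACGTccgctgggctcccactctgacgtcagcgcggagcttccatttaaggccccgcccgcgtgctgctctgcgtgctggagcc
Ldhb: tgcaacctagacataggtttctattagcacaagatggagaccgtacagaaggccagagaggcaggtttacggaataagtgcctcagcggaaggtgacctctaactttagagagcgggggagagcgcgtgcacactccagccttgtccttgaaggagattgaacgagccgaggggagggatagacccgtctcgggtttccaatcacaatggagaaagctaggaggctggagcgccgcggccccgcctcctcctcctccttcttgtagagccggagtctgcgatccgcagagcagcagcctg
The *Ldha* window held 5 matches to ACGTG over both strands, CACGTG being counted once on each, and the *Ldhb* window held 0 of either motif. Among 32851 promoters of this length, 19.6% held ACGTG at least once and 1.73% held it 3 times or more. The second *Ldha* entry held 0 matches to ACGTG and 1 to TAATC.

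*Ldha* was 44392, 48884 and 46727 in control rods and 14999.9, 18033 and 14857 in control retina. No rod library overlapped a retina library. The log2 difference was 1.55 ± 0.0862 (SE, adjusted p = 6e-10, limma on log2 of the common-scale value + 1, with 23.5% of 25584 genes called higher in rods and 35.5% called lower). In Pkm2Rodko mice *Ldha* was 53193, 55544 and 49666 in rods and 17745, 17274 and 16868 in retina, a log2 difference of 1.61 ± 0.0862 (adjusted p = 3.2e-10, limma), where 23.9% of genes were called higher and 35.1% lower. *Ldhb* was 2842, 1714 and 2724 in control rods and 3189.7, 2652 and 2809.5 in control retina, and the 2 sets of libraries overlapped. Its log2 difference of -0.28 ± 0.154 did not pass the test (adjusted p = 0.129, limma). Rod and retina libraries with the same replicate number deviated together, and with that number as a block the *Ldhb* difference did pass (adjusted p = 0.0153 in control and 0.0147 in Pkm2Rodko mice, limma). Without control rods replicate 2, the lowest library, the unblocked difference in control mice was -0.064 (adjusted p = 0.661, limma). *Ldhb* in Pkm2Rodko mice was 2420.2, 1808 and 2104 in rods and 2581, 2435 and 2633 in retina.

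The share of *Ldha* among *Ldha* and *Ldhb* reads does not depend on how the fractions were scaled. It was 94.0%, 96.6% and 94.5% in control rods, 95.6%, 96.8% and 95.9% in Pkm2Rodko rods, 82.5%, 87.2% and 84.1% in control retina and 87.3%, 87.6% and 86.5% in Pkm2Rodko retina. Every rod library lay above every retina library. The mean of the 6 rod libraries exceeded that of the 6 retina libraries by 9.72 percentage points (p = 0.00216 in an exact two-sided permutation test, as low as 6 against 6 libraries can reach, and adjusted p = 0.00325 over 12 ratios of this kind). Some of the 12 restate the *Ldha* to *Ldhb* or the *Mpc2* to *Mpc1* proportion in another form. They are therefore not 12 distinct ratios, which limits every p-value adjusted over them. The share was higher in rods in 6 of 6 pairs of the same number (exact sign-flip test, p = 0.03125). Within 1 genotype the exact permutation test cannot go below p = 0.1. Per kilobase, *Ldha* exceeded *Ldhb* by 9.69 ± 3.34 times in control rods and 2.65 ± 0.513 times in control retina (SD, n = 3). Between genotypes the share differed by 1.11 percentage points in rods (exact permutation p = 0.3) and 2.57 in retina (exact permutation p = 0.2), both higher in Pkm2Rodko.

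**Figure D2:**
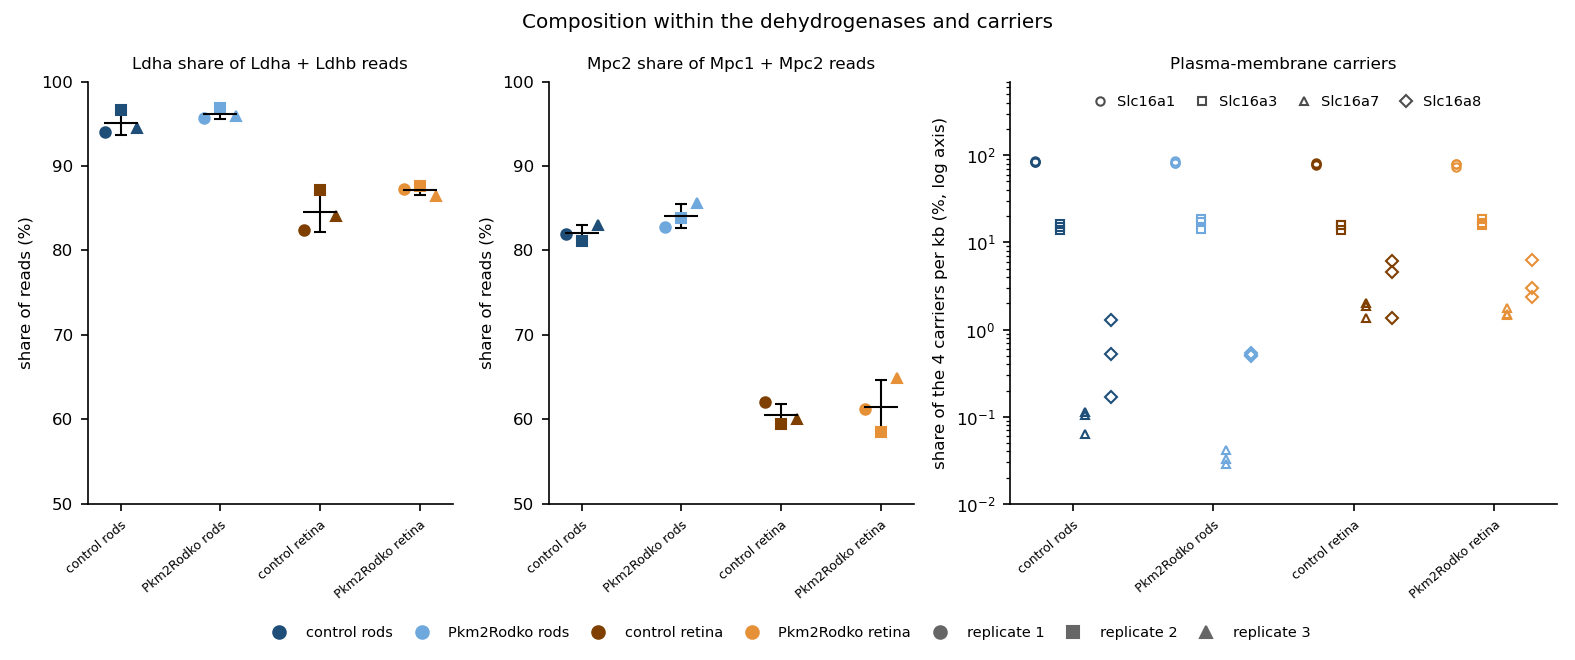
Composition by library: share of *Ldha* in *Ldha* plus *Ldhb* reads and of *Mpc2* in *Mpc1* plus *Mpc2* reads (%, axes from 50 to 100, bars are the mean and SD of 3), and the share of each of the 4 plasma-membrane carriers in their summed level per kilobase (%, log axis). The *Ldha* share lay between 94.0% and 96.8% in rods and between 82.5% and 87.6% in retina, and *Slc16a1* held most of the carrier total in every library.

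Of the other lactate dehydrogenase genes, *Ldhc* and *Ldhal6b* had 0 reads in every library. *Ldhd*, the mitochondrial D-lactate dehydrogenase, was lower in rods (log2 difference -3.77 in control mice, adjusted p = 8.8e-05, limma). Its mean was near the floor in control rods, at 4.32 ± 4.11 against 50.7 ± 10.1 in control retina (SD, n = 3). Among sequence copies, *Ldha-ps2* held 0.438% ± 0.0766 as many reads as *Ldha* in control rods and *Ldhb-ps* held 1.61% ± 0.679 as many as *Ldhb* (SD, n = 3), and *Ldha-ps3* held 0.

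*Slc16a1* (MCT1), *Slc16a3* (MCT4, the carrier of strongly glycolytic cells) and *Bsg* were higher in rods, while *Slc16a7* (MCT2) and *Slc16a8* (MCT3, the basolateral carrier of the pigment epithelium) were lower. Promoters of *Slc16a1*, chr3:104638414-104638713 (+ strand), and *Slc16a3*, chr11:120948817-120949116 (+ strand), are shown since these carriers, like *Ldha*, were higher in rods, with build, window and capitals as above.
Slc16a1: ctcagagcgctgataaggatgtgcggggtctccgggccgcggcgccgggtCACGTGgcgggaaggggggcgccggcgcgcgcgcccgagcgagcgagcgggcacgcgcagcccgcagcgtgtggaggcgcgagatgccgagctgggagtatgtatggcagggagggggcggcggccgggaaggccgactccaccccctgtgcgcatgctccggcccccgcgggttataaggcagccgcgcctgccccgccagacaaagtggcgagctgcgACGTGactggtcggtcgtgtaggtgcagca
Slc16a3: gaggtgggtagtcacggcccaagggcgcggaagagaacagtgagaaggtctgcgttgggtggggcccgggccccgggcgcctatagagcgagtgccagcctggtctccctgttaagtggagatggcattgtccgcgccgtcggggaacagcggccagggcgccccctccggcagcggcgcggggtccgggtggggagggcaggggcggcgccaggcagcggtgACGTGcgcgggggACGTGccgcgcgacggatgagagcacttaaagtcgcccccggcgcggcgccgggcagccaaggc
ACGTG matched 3 times in the *Slc16a1* window and 2 times in that of *Slc16a3*, and TAATC matched 0 times in both. The windows of *Slc16a8*, of *Mpc1* (both entries) and of *Mpc2*, which was also called higher in rods, held 0 matches to either.

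*Slc16a1* was 9815, 10837 and 8908 in control rods, 9689, 11250.4 and 11294 in Pkm2Rodko rods, 3559.6, 4198 and 3177 in control retina and 3837, 3880.0 and 3920.1 in Pkm2Rodko retina. Rod and retina libraries were far apart, and the genotypes overlapped within each fraction. The rod excess was 1.44 ± 0.1 on the log2 scale in control mice (SE, adjusted p = 6.5e-09, limma) and 1.47 in Pkm2Rodko mice (adjusted p = 4.5e-09, limma). *Slc16a3* was 1889, 2561 and 1937 in control rods, 2402, 3049 and 2250.5 in Pkm2Rodko rods, 754, 974 and 787 in control retina and 922, 1164 and 989 in Pkm2Rodko retina. Replicate 2 was the highest in all 4 groups. Its rod excess was 1.34 ± 0.141 (SE, log2, adjusted p = 6.9e-07, limma) in control mice and 1.32 (adjusted p = 7.4e-07, limma) in Pkm2Rodko mice. *Slc16a1* exceeded *Slc16a3* per kilobase by 5.62 ± 0.584 times in control rods and 5.23 ± 0.415 times in control retina (SD, n = 3), and this ratio did not differ between fractions in the test (two-sided exact permutation p = 0.242, adjusted p = 0.264).

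*Bsg* was 21396, 17954 and 23005 in control rods, 22658, 19509.9 and 16913 in Pkm2Rodko rods, 10478, 9321 and 11454 in control retina and 10903, 9551 and 9663 in Pkm2Rodko retina. It was thus higher in each rod library than in each retina library, by 0.99 ± 0.116 on the log2 scale in control mice (SE, adjusted p = 2.1e-06, limma) and 0.96 in Pkm2Rodko mice (adjusted p = 2.7e-06, limma). The rod excess of *Bsg* was smaller than those of *Slc16a1* and *Slc16a3*. *Bsg* reads amounted to 1.76 ± 0.395 times those of *Slc16a1* and *Slc16a3* together in control rods, 1.496 ± 0.333 in Pkm2Rodko rods, 2.37 ± 0.546 in control retina and 2.05 ± 0.211 in Pkm2Rodko retina (SD, n = 3). The ratio was lower in rods in 6 of 6 pairs (exact sign-flip test, p = 0.03125, as low as 6 pairs can reach). With the libraries taken as unpaired, the two-sided exact permutation test gave p = 0.0303 (adjusted p = 0.0364 over the 12 ratios).

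*Slc16a7* was near the floor of detection in rods. It was 19.6, 39.1 and 30.2 in control rods (12, 42 and 19 reads) and 13.0, 12.2 and 10.1 in Pkm2Rodko rods (10, 9 and 10 reads), against 223, 186 and 223 in control retina and 195, 251 and 195 in Pkm2Rodko retina. The log2 difference of rods from retina was -2.83 ± 0.246 in control mice (SE, adjusted p = 7.7e-08, limma) and -4.07 in Pkm2Rodko mice (adjusted p = 1.1e-09, limma). Müller glia markers, which were all detected in every library, differed in the same direction, with a median log2 difference of -2.87 in control mice over 14 genes. Markers of other cell types did so by similar amounts. The medians were -3.09 for bipolar, -3.12 for amacrine, -2.61 for horizontal, -3.13 for ganglion, -2.72 for pigment epithelium, -2.94 for endothelial and -3.03 for microglia markers. Cone markers had a median of -0.70 and rod markers one of 1.91. The part of any of these cells in the *Slc16a7* level was not tested.

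*Slc16a8* was 31.1, 11.2 and 70.0 in control rods, 31.2, 35.3 and 36.2 in Pkm2Rodko rods, 106, 36.0 and 131 in control retina and 73.9, 170.3 and 59.7 in Pkm2Rodko retina. Its libraries overlapped between control rods and control retina but not between Pkm2Rodko rods and Pkm2Rodko retina. The log2 difference of rods from retina was -1.41 ± 0.566 in control mice (SE, adjusted p = 0.0425, limma) and -1.39 in Pkm2Rodko mice (adjusted p = 0.0459, limma), and with the replicate block it was the same with adjusted p = 0.00047 and 0.000536. Without the block these calls were lost in many omissions of a single library, for example without control rods replicate 2 (log2 difference -0.77, adjusted p = 0.216) or without Pkm2Rodko retina replicate 2 (-0.94 in Pkm2Rodko mice, adjusted p = 0.215, limma). The summed level of the 12 pigment epithelium markers was 1446, 399 and 2975 in control rods, 9945, 2234 and 20872 in control retina, 1965, 1375 and 542 in Pkm2Rodko rods and 11440.3, 12551 and 3873 in Pkm2Rodko retina. In 3 of the 4 groups the libraries ranked by *Slc16a8* had the highest and the lowest sum at the same ends. The exception was Pkm2Rodko rods, where the order of the sums was the reverse of that of *Slc16a8*. Of these markers only *Best1* was at 0, in 1 control and 1 Pkm2Rodko rod library. Their part in the *Slc16a8* values was not tested.

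**Figure D3:**
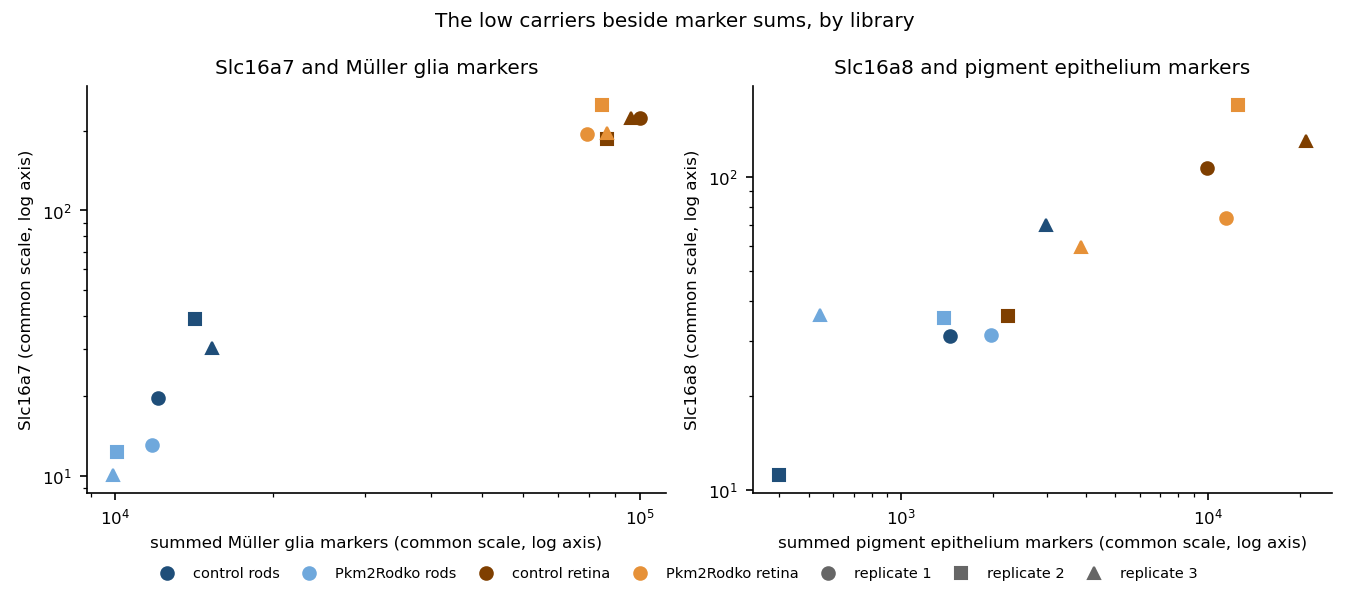
*Slc16a7* against the summed level of 14 Müller glia markers, and *Slc16a8* against the summed level of 12 pigment epithelium markers, in each of the 12 libraries (common scale, log axes, colours give the group and shapes the replicate number). Rod libraries lie at 10.1 to 39.1 for *Slc16a7* and at 9917 to 15341 for the Müller sum, and the control library lowest in *Slc16a8*, at 11.2, is also lowest in the pigment epithelium sum, at 399.

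Per kilobase, *Slc16a1* made up 84.2% ± 1.31 of the 4 carriers in control rods, 83.0% ± 2.12 in Pkm2Rodko rods, 79.1% ± 2.69 in control retina and 77.5% ± 3.44 in Pkm2Rodko retina (SD, n = 3). *Slc16a7* made up 0.0941% ± 0.0262 of the total in control rods and 1.74% ± 0.339 in control retina. *Slc16a8* made up 0.657% ± 0.565 in control rods, or 0.348% without replicate 3, and 4.02% ± 2.42 in control retina.

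The RdCVF gene was the member most enriched in rods. Its promoter, chr8:71566600-71566899 (- strand), is shown because of that enrichment, with build, window and capitals as above.
Nxnl1: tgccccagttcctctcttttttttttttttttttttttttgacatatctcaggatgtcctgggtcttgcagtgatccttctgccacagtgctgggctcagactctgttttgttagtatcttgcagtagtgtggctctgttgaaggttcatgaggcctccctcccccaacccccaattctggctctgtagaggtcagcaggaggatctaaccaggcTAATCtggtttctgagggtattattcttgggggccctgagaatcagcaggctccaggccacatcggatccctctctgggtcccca
It held 1 match to TAATC and 0 to ACGTG, and 22% of the 32851 promoters held TAATC at least once. *Nxnl1* was 15702, 13762 and 15682 in control rods, 15326, 15129.5 and 14765 in Pkm2Rodko rods, 4203, 4428 and 3907 in control retina and 4499, 4232 and 4534 in Pkm2Rodko retina. The rod excess was 1.85 ± 0.0737 on the log2 scale in control mice (SE, adjusted p = 4.2e-11, limma) and 1.77 in Pkm2Rodko mice (adjusted p = 2.9e-11, limma), close to the median of the 20 rod markers (1.91 and 1.90). The replicates were tight, and genotypes overlapped in both fractions.

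The partner subunits went opposite ways between the fractions. *Mpc1* was 183, 188 and 207 in control rods, 207, 164 and 129 in Pkm2Rodko rods, 362, 332 and 368 in control retina and 349, 364 and 269 in Pkm2Rodko retina. No rod library reached a retina library, and the log2 difference was -0.88 ± 0.161 in control mice (SE, adjusted p = 0.000219, limma) and -0.98 in Pkm2Rodko mice (adjusted p = 6.9e-05, limma). *Mpc2* was 835, 810.3 and 1011 in control rods, 998, 850.3 and 769 in Pkm2Rodko rods, 592, 486 and 554 in control retina and 552, 512 and 497 in Pkm2Rodko retina. It was higher in rods by 0.70 ± 0.116 (SE, log2, adjusted p = 8.1e-05, limma) in control mice and 0.74 (adjusted p = 4.6e-05, limma) in Pkm2Rodko mice, a call that depended on the scaling of the fractions. The *Mpc2* share of *Mpc1* and *Mpc2* reads, which does not depend on it, was 82.1% ± 0.929 in control rods, 84.1% ± 1.43 in Pkm2Rodko rods, 60.5% ± 1.36 in control retina and 61.5% ± 3.20 in Pkm2Rodko retina (SD, n = 3). It was 22.1 percentage points higher over the 6 rod libraries than over the 6 retina libraries (two-sided exact permutation p = 0.00216, adjusted p = 0.00325 over the 12 ratios). That test takes the libraries as unpaired. The share was higher in rods in 6 of 6 pairs of the same number (exact sign-flip test, p = 0.03125, as low as 6 pairs can reach). The copy *Mpc1-ps* held 45.9% ± 8.96 as many reads as *Mpc1* in control rods and 53.4% ± 2.83 in control retina (SD, n = 3) and was also lower in rods (log2 difference -1.10, adjusted p = 5.4e-05, limma). Reads could have been divided between the 2 sequences, so the *Mpc1* level is uncertain, and with it the size of the *Mpc2* share.

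The 6 genes called higher in rods and the 3 called lower were the same in both genotypes. All genes were called higher in 23.5% and lower in 35.5% of cases in control mice (23.9% and 35.1% in Pkm2Rodko mice), so the 3 lower of 10 are near the share over all genes. The median log2 difference of the 10 genes in control mice was 0.85, against -0.37 for all genes tested. Whole retina holds rods among other cells, and in such bulk RNA fewer cells of a type cannot be told apart from less RNA per cell. The rod libraries hold RNA on pulled-down polyribosomes and the retina libraries hold total RNA. In differences between the fractions, cell type therefore cannot be told apart from ribosome loading or from effects of the pulldown. A scaling by total reads moved the median gene from -0.37 to -0.76 in control mice, and the share of calls that were higher in rods went from 39.8% to 14.7%. Under it, the *Mpc2* difference was 0.15 (adjusted p = 0.274, limma) and no longer passed, and the *Ldhb* difference was -0.83 (adjusted p = 0.000134, limma) and did. Against the median gene the values moved less, from 1.92 to 1.76 for *Ldha*, from 1.81 to 1.65 for *Slc16a1*, from 1.36 to 1.20 for *Bsg* and from 1.07 to 0.91 for *Mpc2*, while *Ldhb* stood at 0.086 and -0.070, within 0.1 of the median gene.

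**Figure D4:**
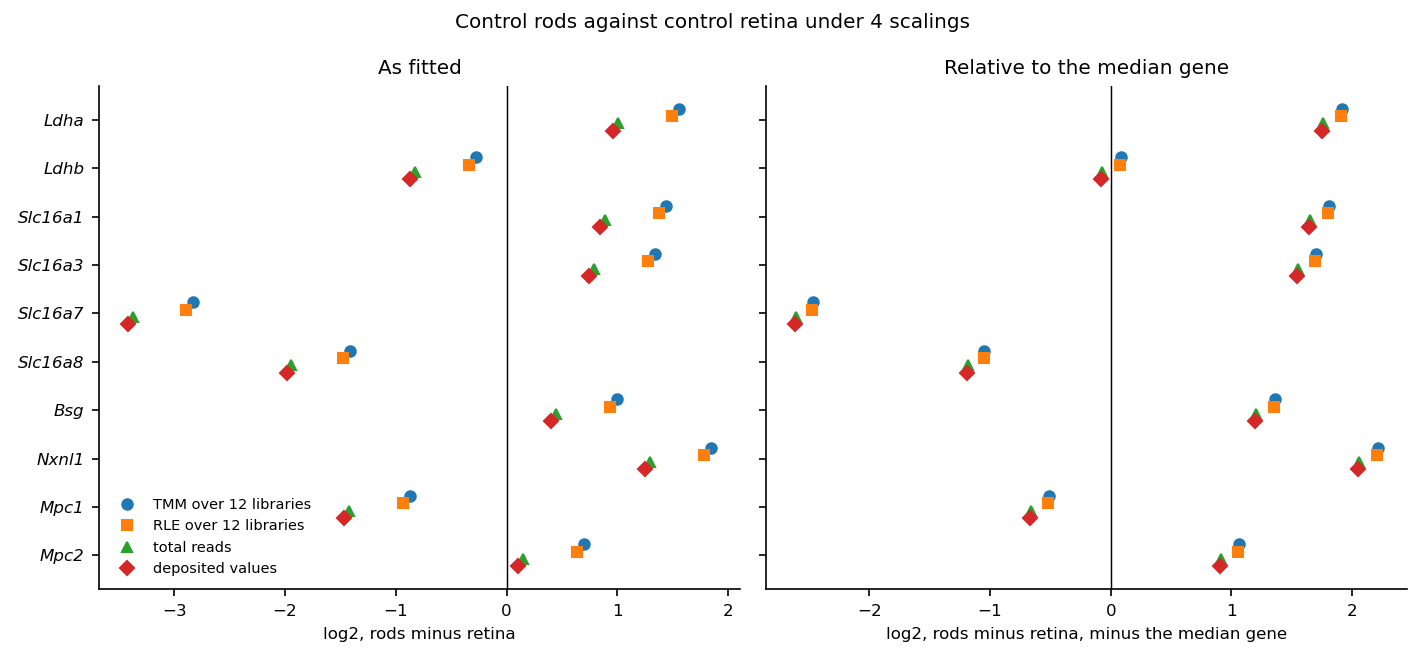
Log2 difference of control rods from control retina for each gene under 4 scalings, as fitted (left) and after subtraction of the median over all genes tested under the same scaling (right). *Ldha*, *Slc16a1*, *Slc16a3*, *Bsg* and *Nxnl1* stay above 0 in both panels under all 4 scalings, and *Ldhb* lies near the median gene.

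With *Pkm* reads in rods reduced, 0 of the 10 genes passed the test between Pkm2Rodko rods and control rods (limma, adjusted p from 0.932 to 0.991), as against 4 of 20658 genes tested, or 0.0194%. *Slc16a7* alone had an unadjusted p under 0.05 by limma, where 4.77% of all genes did. By edgeR and DESeq2, 0 of the 10 passed the adjusted threshold, and *Ldha* and *Slc16a7* passed the unadjusted one. The share of all genes past the unadjusted threshold was not counted for edgeR or DESeq2, in rods or in retina. In retina 0 of the 10 passed (limma, adjusted p from 0.947 to 0.983), as against 1 of 25590 genes, or 0.00391%. *Slc16a3* alone had an unadjusted p under 0.05 there by limma, edgeR and DESeq2, where 4.18% of all genes did by limma.

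*Ldha* was higher in all 3 Pkm2Rodko rod libraries (49666 to 55544) than in all 3 control rod libraries (44392 to 48884), by 0.19 ± 0.0889 on the log2 scale (SE, 95% interval -0.0061 to 0.38, unadjusted p = 0.0566, adjusted p = 0.932, limma). Such a gap between libraries was seen in 4.49% of genes tested in rods. In retina the *Ldha* difference was 0.14 (95% interval -0.048 to 0.32), and the libraries overlapped. *Ldhb* was lower by a log2 difference of -0.17 in rods (95% interval -0.52 to 0.19) and -0.16 in retina (95% interval -0.33 to 0.017), and neither passed the test (adjusted p = 0.932 and 0.947, limma). *Slc16a3* differed by 0.28 in rods (95% interval -0.014 to 0.57) and 0.31 in retina (95% interval 0.06 to 0.55, unadjusted p = 0.0182, adjusted p = 0.947, limma). For the 8 genes other than *Slc16a7* and *Slc16a8*, the 95% intervals in rods lay between -0.62 (*Mpc1*) and 0.57 (*Slc16a3*), and those in retina between -0.37 (*Mpc1*) and 0.55 (*Slc16a3*). The interval for *Slc16a8* ran from -0.85 to 1.29 in rods.

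*Slc16a7* was the member with the widest separation between genotypes, with all 3 Pkm2Rodko rod libraries (10.1 to 13.0) below all 3 control rod libraries (19.6 to 39.1). The log2 difference was -1.20 ± 0.381 (SE, 95% interval -2.02 to -0.37, unadjusted p = 0.00786, adjusted p = 0.932, limma), and 5.4% of genes tested in rods had all Pkm2Rodko libraries below all control libraries. These levels rest on 9 to 42 reads a library. In retina its difference was 0.033 (95% interval -0.26 to 0.33). The summed Müller markers were also lower in every Pkm2Rodko rod library (9917 to 11759) than in every control rod library (12088 to 15341), with 13 of 14 markers below 0 in log2 difference (median -0.35) and 0 called. The summed amacrine markers (2536 to 2915 against 3024 to 4514) and endothelial markers (351 to 443 against 493 to 669.9) were likewise separate. Most markers of the other cell types were below 0 too, with 18 of 20 bipolar, 12 of 13 amacrine, 11 of 12 ganglion, 10 of 12 pigment epithelium, 9 of 11 endothelial, 9 of 12 microglia, 9 of 12 cone and 5 of 8 horizontal cell markers negative and 0 called (limma), as against 2 of 20 rod markers. In retina, where *Slc16a7* differed by 0.033, the summed Müller markers were separate as well (79489 to 86787 against 86856 to 100071). So were the summed bipolar markers (29221 to 36388 against 36977 to 39197) and cone markers (21197 to 22234 against 23377 to 25333). All 14 Müller and all 20 bipolar markers were negative there, as against 3 of 20 rod markers, with 0 called (limma). Most markers of each other cell type were negative in retina too. The part of any of these cells in the *Slc16a7* values was not tested.

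**Figure D5:**
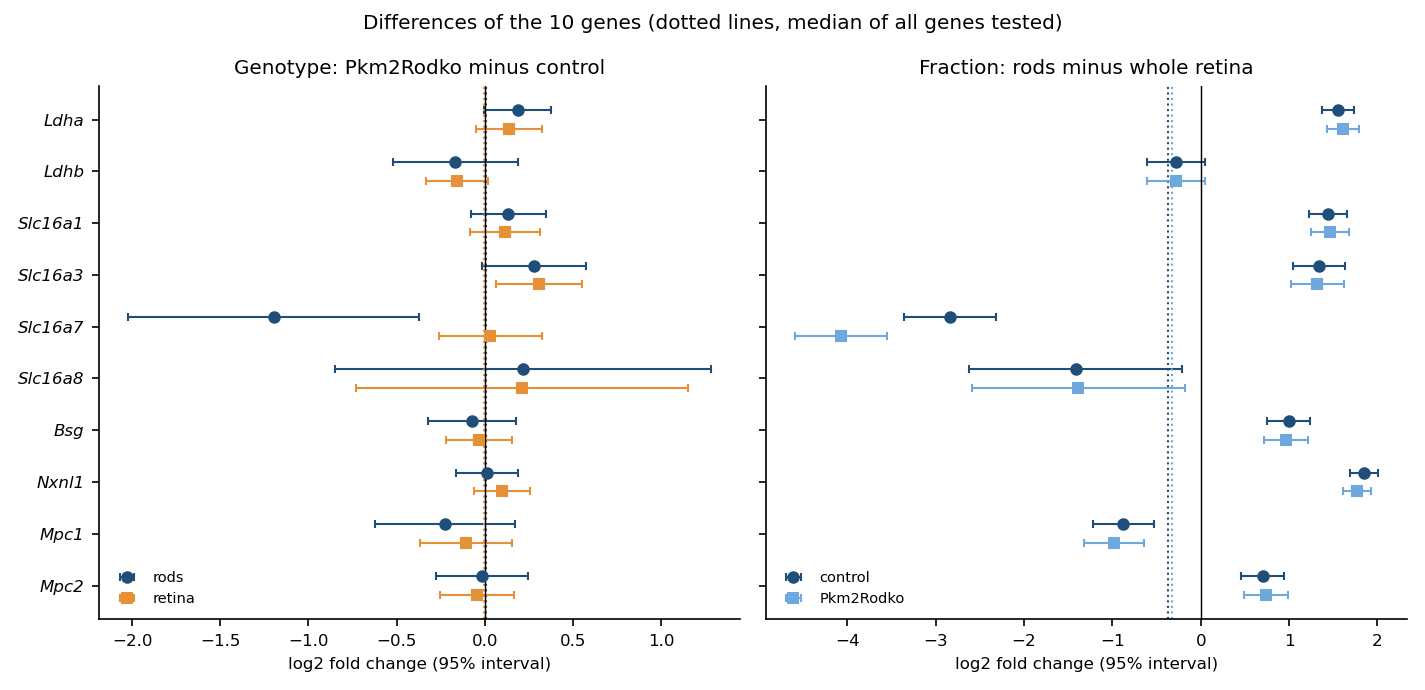
Log2 differences with 95% intervals for each gene: Pkm2Rodko minus control in rods and in retina (left), and rods minus retina in control and Pkm2Rodko mice (right), with dotted lines at the median of all genes tested. On the left, only *Slc16a7* in rods (-1.20) and *Slc16a3* in retina (0.31) have intervals that leave out 0, and neither passed after adjustment, whereas on the right the interval of *Ldhb* alone includes 0.

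The test of whether the genotype effect differed between rods and retina called 0 of the 10 genes (limma, adjusted p of at least 0.978) and 0% of 25584 genes, with 0 genes by edgeR and 1 by DESeq2. *Slc16a7* alone had an unadjusted p under 0.05 there by limma, edgeR and DESeq2, with a difference of -1.23 ± 0.347 between the log2 effects (SE, unadjusted p = 0.00283, adjusted p = 0.978, limma). For this test the share of all genes with an unadjusted p under 0.05 was not counted, so *Slc16a7* cannot be set against it. In retina 0 genes of the 10 had Pkm2Rodko libraries wholly above or wholly below control libraries on the deposited values, where 4.53% and 4.76% of all genes did. On the common scale *Ldhb* libraries of Pkm2Rodko retina (2435 to 2633) all lay below those of control retina (2652 to 3189.7).

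Of 30 listed genes outside the 10, 27 were tested, and 0 passed in rods, retina or the difference between them by genotype (limma). Unadjusted p under 0.05 was reached in rods by *Emb* (log2 difference -0.57) and *Slc16a13* (-1.05), in retina by *Gpt* (1.07) and in the difference between the fractions by *Slc16a13* (-1.28), these being named after their values were seen. Between control rods and control retina 9 of the 27 were higher in rods and 16 were lower (limma), beside 23.5% and 35.5% of all genes, with a median log2 difference of -1.23. With total reads as the scaling, 6 were higher and 18 lower, beside 8.43% and 49.1% of all genes. Of 10 further SLC16 carriers, *Slc16a6* was higher (log2 difference 0.56, adjusted p = 0.000143, but 0.0090 and adjusted p = 0.947 by total reads, limma) and 9 were lower under both scalings. The most lowered were *Slc16a9* (-2.94) and *Slc16a4* (-2.84), both near the floor in control rods, with means of 12.1 and 6.74. *Slc5a8*, a sodium-coupled lactate carrier, was lower (-3.97, adjusted p = 5.0e-09, limma), with a mean of 9.08 in control rods. Among relatives of basigin and of RdCVF, *Nxnl2* was higher (1.77, and 1.22 by total reads), and *Emb*, which like basigin escorts MCTs, was lower (-2.39, and -2.94 by total reads). *Nptn*, a further relative of basigin, turned with the scaling, from 0.33 (adjusted p = 0.00129) to -0.22 (adjusted p = 0.0103, limma). Of 12 enzymes listed for pyruvate handling, 6 were higher and 4 lower (5 and 5 by total reads). The 4 include *Pck2* (-0.96), named outside the naming rule because it makes phosphoenolpyruvate from oxaloacetate and does not itself act on pyruvate. The highest were *Me2*, a mitochondrial malic enzyme (1.21), and *Dld*, a subunit of the pyruvate dehydrogenase complex (0.995). The lowest were *Me3*, another malic enzyme (-3.25, with a mean of 15.9 in control rods), and *Gpt2*, an alanine aminotransferase (-1.23).

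Among 12729 genes compared over the 12 libraries, the patterns nearest to that of *Nxnl1* were those of *Cdhr1*, *Nr2e3* and *Gnb1*, with root mean square log2 differences of 0.0581, 0.0679 and 0.0699. *Nr2e3* and *Gnb1* are on the rod marker list. The nearest to *Ldha* were *Gm7803* (0.0709), *Trafd1* (0.0735) and *Plekha2* (0.0739), and the nearest to *Bsg* were *Pop7* (0.0667), *Mlf2* (0.0673) and *Atp5g3* (0.0686). *Ldhb* had more distant neighbours in *Ccdc91* (0.0931), *Psme2* (0.114) and *Pigz* (0.114). Within the 10 genes, *Ldha* and *Slc16a1* were the closest pair (0.113) and *Bsg* with *Mpc2* came next (0.148), whereas *Ldha* and *Ldhb* differed by 0.976. All 12 libraries share the contrast of rods with retina, which sets most of these distances. Deviations from the group mean went the same way in the rod and retina library of a number in 6 of 6 pairs for *Slc16a1*, *Slc16a3* and *Bsg*, in 4 of 6 for *Ldha* and in 2 of 6 for *Nxnl1*.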

How the data were processed

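Retinal RNA from 12 libraries (3 in each of control and Pkm2Rodko rods and retina) was examined at the level of genes. Per the labels, the submitters' processing notes name CASAVA 1.8.2, HISAT2, DESeq2, edgeR and GRCm39, and the counter, annotation and strand setting are not given in the sources used here. The authors deposited a signal, namely read counts divided by a size factor set within each fraction and rounded to 1 decimal. Whole reads were recovered for 100% of values (tolerance 0.06).

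Genotypes were compared by limma 3.58.1 on log2(deposited value + 1) for genes with a mean of at least 1 in either genotype. Rods and retina, and the difference of genotype effects, were compared in 1 limma fit of 4 group means on log2(x + 1), x being recovered reads scaled by TMM (edgeR 4.0.16) over 12 libraries. Fold changes are on that log2 scale and understate those of low genes. P-values were adjusted by Benjamini-Hochberg over all genes tested, with a threshold of 0.05. The deposited and common scales moved no genotype difference of the 10 genes by more than 0.0205 (log2). Ratios were tested by exact permutation, which takes the libraries as unpaired, and over pairs of the same number by an exact sign-flip test. Exon lengths (GENCODE vM21, isoforms merged) gave levels per kilobase. edgeR, DESeq2 1.42.0, other scalings, filters and pseudocounts, and omission of each library were alternatives. Code was tested on simulated data.

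Same-numbered rod and retina libraries of a genotype deviated together (correlation over 12730 genes 0.273 to 0.556 in 6 pairs), so the number pairs them, as known from the data and not from the labels. Between genotypes it ran from -0.290 to 0.0376, so the number does not pair genotypes.

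The 10 genes, the marker lists and the pathway lists were chosen with earlier results of these data known. Named were the 10 genes, *Pkm*, copies bearing a member's symbol, the 2 highest and 2 lowest called genes of each pathway list in control rods against control retina, and the 3 nearest patterns (mean x of at least 50) of *Ldha*, *Ldhb*, *Bsg* and *Nxnl1*. A single gene that this rule names is not reported here. Promoters came from RefSeq (GRCm38.p6) for 8 of the 10 genes, and *Bsg* and *Slc16a7* had none shown.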

Additional observations from a re-analysis of the deposited data

How the results depend on the processing

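The counts of members called in each comparison stayed within 1.5 times under every alternative run. With the replicate number as a block (paired rods and retina), *Ldhb* passed as lower in rods in control (-0.28, adjusted p = 0.0153, limma) and Pkm2Rodko mice (-0.28, adjusted p = 0.0147, limma), and no other member's call changed. Across genotypes, which the number does not pair, the block left 0 members called, and genes called went from 4 to 8 in rods and from 1 to 0 in retina. The *Ldha* share rose in rods by 10.4 percentage points in control libraries alone and 8.997 in Pkm2Rodko libraries alone (exact permutation p = 0.1 in each, the smallest possible with 3 against 3).

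*Slc16a8* passed in neither genotype without a filter (adjusted p = 0.0521 and 0.0563, limma) or with a pseudocount of 0.1 (0.0563 and 0.0631). In control mice it also failed without control rods replicate 1 or 2, Pkm2Rodko rods replicate 2 or 3, control retina replicate 1 or 3, or Pkm2Rodko retina replicate 1 (log2 -2.03 to -0.77 over omissions, adjusted p 0.00506 to 0.216), and in Pkm2Rodko mice in 7 such omissions (-1.69 to -0.94, 0.0171 to 0.215). *Ldhb* passed without control rods replicate 1 in control mice (-0.40, adjusted p = 0.0488, range over omissions 0.0488 to 0.661, and -0.064 without control rods replicate 2). In Pkm2Rodko mice it passed without control rods replicate 2 (adjusted p = 0.0291) or Pkm2Rodko rods replicate 1 (0.0424, range 0.0291 to 0.405) and by DESeq2 (-0.35, adjusted p = 0.0472). On the deposited values *Mpc2* was at 0.11 (adjusted p = 0.440, control) and 0.13 (0.321, Pkm2Rodko).

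Reversals were of uncalled genotype differences. *Slc16a8* in rods was -0.042 and -0.049 by edgeR with TMM and RLE and -0.084 by DESeq2. Over omissions of 1 library the rod difference ran from -0.42 to 0.82 (*Slc16a8*), -0.17 to 0.031 (*Bsg*), -0.047 to 0.047 (*Nxnl1*) and -0.11 to 0.079 (*Mpc2*). The retina difference ran from -0.085 to 0.099 (*Slc16a7*), -0.35 to 0.57 (*Slc16a8*), -0.11 to 0.039 (*Bsg*), -0.19 to 0.018 (*Mpc1*) and -0.12 to 0.014 (*Mpc2*). *Slc16a7* in rods kept its direction (-1.45 to -0.98). The causes were not tested. The scaling of the pathway genes, and the carrier shares without each library, were checked after their values were seen. *Slc16a7* rests on 9 to 42 reads in each rod library.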
